A study of Homo sapiens with 36 samples.

Results

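The comparison described here is that of resting THP-1 cells carrying a short hairpin RNA against NR4A3 (shNR4A3) with THP-1 cells carrying a non-target hairpin (shNT), both kept at 5% CO2 without LPS. THP-1 is an established human monocytic leukaemia line, and the hairpins had been delivered by lentiviral particles. The members are the 6 libraries that the sample records place in these conditions, 3 of each line, out of 36 libraries in the series. The other 30 libraries came from the same lines and from an shNR4A2 line, at 5% or 10% CO2 for 4 h, with or without 2.5 µg/mL LPS (bacterial lipopolysaccharide) for the last 2 h, in 3 replicates per condition. All 6 libraries compared here thus carried a lentiviral hairpin and spent 4 h in buffered medium at 5% CO2. Each line stands for its hairpin by itself: the number of hairpins, clones or transductions behind a line was not given in the sources used here, so the depletion of NR4A3 and any other difference between the lines cannot be told apart. The replicates are described in the study's figure captions as individual experiments. All were made with the same transduced lines, so the p-values measure the spread between experiments on these lines.

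NR4A3 belongs with NR4A1 and NR4A2 to a family of orphan nuclear receptors, which act as transcription factors without a known hormone and bind DNA at an element called the NBRE. Their genes are early response genes: in monocytes they are switched on quickly by stimuli such as LPS and are kept low at rest. The receptors are known for roles in monocyte and dendritic cell differentiation and in the restraint of inflammatory genes, and the comparison asks which transcripts differ when NR4A3 is depleted before any stimulus is given.

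The targeted gene was first examined in every library as a check of the labels. NR4A3 (ENSG00000119508, chr9:99821855-99866891, GRCh38, plus strand) had 20, 21 and 17 counts in the 3 shNT libraries and 5, 3 and 1 counts in the 3 shNR4A3 libraries. Per length, in TPM (each transcript's share of the library after division by its length), these were 0.556, 0.693 and 0.512 in shNT cells and 0.158, 0.107 and 0.0315 in shNR4A3 cells, so the groups did not overlap but both lay at a low level. The ratio of the summed counts, scaled to the library totals, was 0.172 with a 95% exact interval of 0.0748 to 0.349, which covers counting error only. The log2 fold change was -2.47 ± 0.53 (SE, n = 3 per line; edgeR adjusted p = 0.00982). The call was lost without shNT replicate 2 (adjusted p = 0.0516), and DESeq2's independent filtering gave this gene no adjusted p.

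At 10% CO2 the same lines did not differ in NR4A3 by the test, with 14, 6 and 9 counts in shNT cells and 6, 8 and 8 counts in shNR4A3 cells (log2 fold change -0.39, adjusted p = 0.735). With LPS at 5% CO2, where NR4A3 was far more abundant, shNT cells held 1121, 1132 and 1254 counts and shNR4A3 cells 582, 516 and 628 counts. That was a log2 fold change of -0.82 (adjusted p = 0.000116). Depletion was therefore seen at rest on few counts, was seen on many counts with LPS, and was not detected at 10% CO2, where the 95% interval of the ratio ran from 0.413 to 1.36. The other family members were not called at 5% CO2, although NR4A1 was called lower in shNR4A3 cells at 10% CO2 (log2 fold change -0.76, adjusted p = 0.00566). NR4A2 was at 4.16, 2.83 and 4.08 TPM in shNT cells and 2.51, 2.97 and 3.31 TPM in shNR4A3 cells (log2 fold change -0.28 ± 0.21, adjusted p = 0.527). NR4A1 was at 9.08, 7.16 and 6.34 TPM in shNT cells and 4.02, 8.37 and 5.10 TPM in shNR4A3 cells (log2 fold change -0.34 ± 0.23, adjusted p = 0.475).

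The 6 libraries held 16566072 to 21068626 counts. Of the shNR4A3 libraries, replicate 2 stood apart: it had the fewest genes with a count (23149, against 26241 to 28805 in the other 5 libraries), and the second principal component, which carried 24.1% of the variance of the 500 most variable genes, set it at 19.3 while the others lay between -12.53 and 3.801. The first component (43.5%) separated the lines. Mitochondrially encoded transcripts took 1.05% of the counts in that library and 1.31% to 2.12% in the other 5. Its values are included below, and the main counts are also given without it. The libraries carried the markers of a monocytic line: all 17 listed markers were detected, among them SPI1, CSF1R, PTPRC and FCER1G. Of the other cell types, the 8 T and NK cell markers summed to 52.6 to 57.9 TPM in shNT and 39.6 to 46.8 TPM in shNR4A3 cells, nearly all of it NKG7, with MS4A1, KLRD1, HBB, PPBP and LUM at 0 in all 6 libraries. The B cell, erythroid and megakaryocyte, fibroblast, epithelial and endothelial lists summed to at most 17.25 TPM in any library.

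Of 17720 genes tested, 1097 (6.19%) differed between the lines at an adjusted p under 0.05 in edgeR's quasi-likelihood test, 596 (3.36%) higher and 501 (2.83%) lower in shNR4A3 cells. Genes past this threshold are called in what follows. Replicate numbers paired the libraries over the more abundant genes, and the main test leaves these pairs out. With the replicate number as a block 2299 genes were called, 1284 higher and 1015 lower, including 1093 of the 1097. Without shNR4A3 replicate 2 the count was 1014, 507 in each direction. It fell to 667 without shNT replicate 2, 668 without shNT replicate 3, 710 without shNR4A3 replicate 1 and 726 without shNR4A3 replicate 3. Most differences were modest: the median log2 fold change was 0.59 among the higher genes and -0.79 among the lower genes, and 280 called genes, 117 higher and 163 lower, differed by a fold of 2 or more. A fold of 4 or more was reached by 49 called genes, of which 33 were lower. The 3 libraries of each line did not overlap in 1092 of the 1097 called genes, against 4253 (24%) of all genes tested. Protein-coding genes were called more often (1027 of 13884, 7.4%) than long non-coding RNAs (46 of 2330, 1.97%). The share called was 1.14% among genes with a mean under 1 CPM (counts scaled to library size) and 8.07% among those with 10 to 100 CPM. Why scarce transcripts were called less often was not tested.

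**Figure D1:**
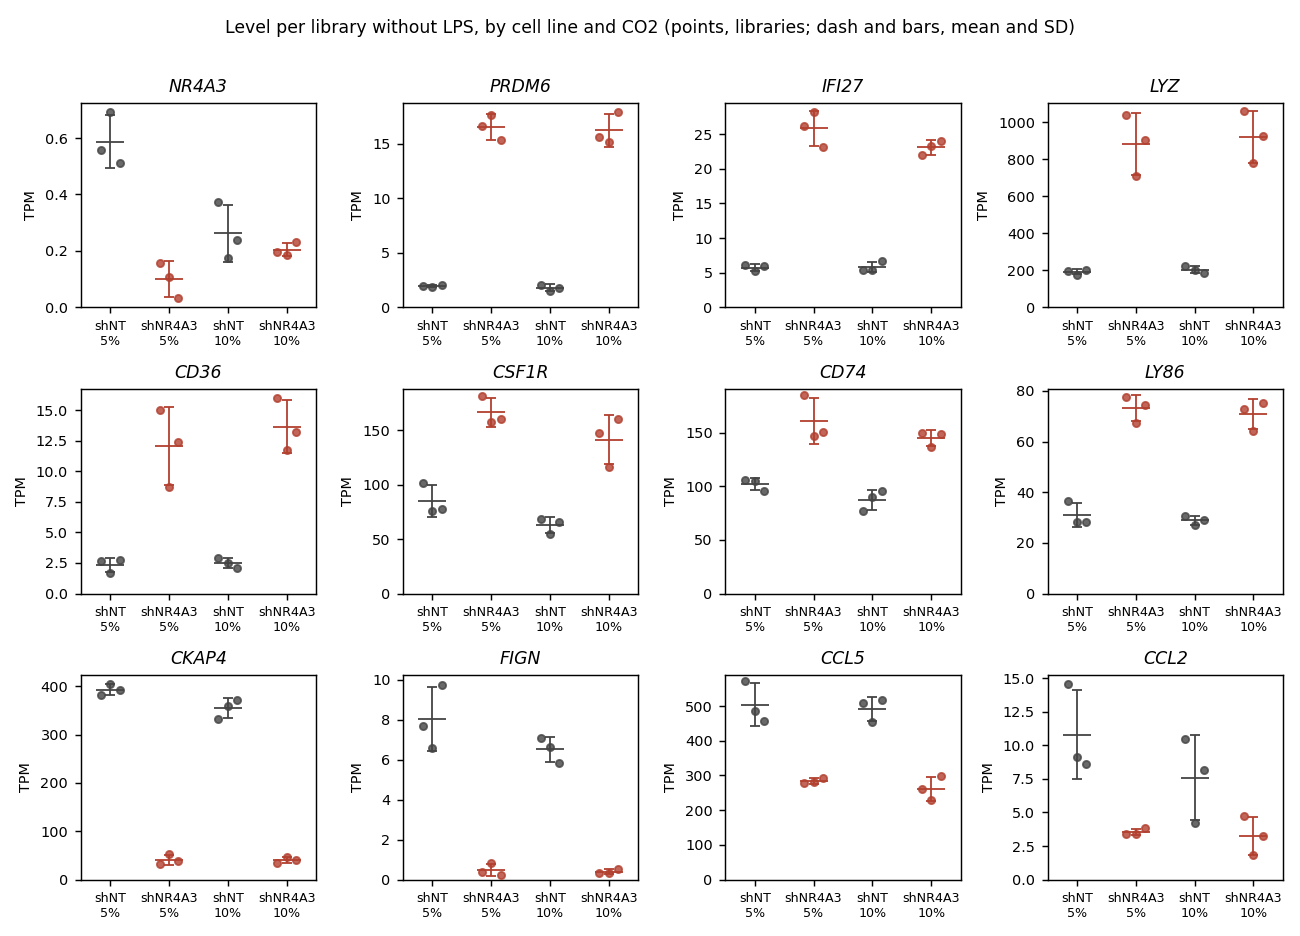
Level of 12 genes in TPM (vertical axes, each from 0) in the 3 libraries of shNT (grey) and shNR4A3 cells (red) at 5% and 10% CO2 without LPS; points are libraries, dashes are means and bars are SDs. NR4A3 separates the lines at 5% CO2 and not at 10% CO2, while PRDM6, IFI27, LYZ, CD36, CSF1R, CD74 and LY86 sit higher and CKAP4, FIGN and CCL5 lower in shNR4A3 cells at both.

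Among called genes with a mean of at least 2 CPM and no overlap between the lines, the largest increases were in genes of varied function. PRDM6 (ENSG00000061455, chr5:123089121-123194266), a transcriptional repressor of the PR domain family, was at 1.92, 1.87 and 2.05 TPM in shNT cells and 16.6, 17.7 and 15.3 TPM in shNR4A3 cells. This was a fold of 8.79, with a log2 fold change of 3.13 ± 0.12 and the smallest adjusted p of all genes (5.17e-10). NCAM1, a neural and natural killer cell adhesion molecule, rose from 1.79, 1.57 and 1.61 TPM to 6.54, 9.80 and 11.7 TPM (log2 fold change 2.54 ± 0.19, adjusted p = 1.52e-06). LYZ, lysozyme, which breaks bacterial cell walls, rose from 198, 177 and 202 TPM to 1040.0, 708 and 901 TPM (log2 fold change 2.26 ± 0.14, adjusted p = 8.53e-07). CD36, a scavenger receptor for lipids, rose from 2.64, 1.71 and 2.73 TPM to 15.03, 8.70 and 12.4 TPM (log2 fold change 2.41 ± 0.22, adjusted p = 7.66e-05). In each of these genes the lowest shNR4A3 library lay more than 3 times above the highest shNT library. The secreted growth factor binding protein IGFBP7 (log2 fold change 2.12), the proteoglycan VCAN (1.95), the potassium channel subunit KCNK13 (1.95), the myeloid surface protein CD101 (1.91) and the transporter pseudogene ABCC13 (2.29) completed the largest increases with IFI27, described with the interferon-stimulated genes. BHLHE22, a basic helix-loop-helix factor, was among the smallest adjusted p-values (log2 fold change 1.66 ± 0.11, adjusted p = 2.3e-07).

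By the same rule the largest decreases reached further from 0. MCF2 (ENSG00000101977, chrX:139581770-139708227), a guanine nucleotide exchange factor, was at 3.38, 2.79 and 3.27 TPM in shNT cells and 0.239, 0.136 and 0.0797 TPM in shNR4A3 cells, a fold of 19.3 (log2 fold change -4.27 ± 0.35, adjusted p = 1.62e-06). FIGN (ENSG00000182263, chr2:163593396-163736012), a microtubule-severing enzyme, fell from 7.70, 6.597 and 9.76 TPM to 0.401, 0.819 and 0.240 TPM (log2 fold change -4.01 ± 0.27, adjusted p = 1.22e-06). CKAP4 (ENSG00000136026, chr12:106237877-106304279), an abundant membrane protein of the endoplasmic reticulum, fell from 381, 404 and 392 TPM to 32.2, 52.6 and 38.3 TPM (log2 fold change -3.22 ± 0.13, adjusted p = 9.92e-09). The lines do not overlap in these genes because the rule required it. The kinases HUNK (log2 fold change -3.06) and BRSK2 (-2.62), the immunoglobulin superfamily gene IGSF10 (-2.96), the adaptor BEX1 (-2.83), the membrane progestin receptor PAQR5 (-2.59), the protocadherin PCDH7 (-2.45) and the methionine sulfoxide reductase MSRB3 (-2.33) followed. CEACAM6, an adhesion molecule of myeloid and epithelial cells, and C3orf80, of unknown function, had log2 fold changes of -2.18 and -1.75 and adjusted p-values of 2.15e-07 and 1.4e-07.

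**Figure D2:**
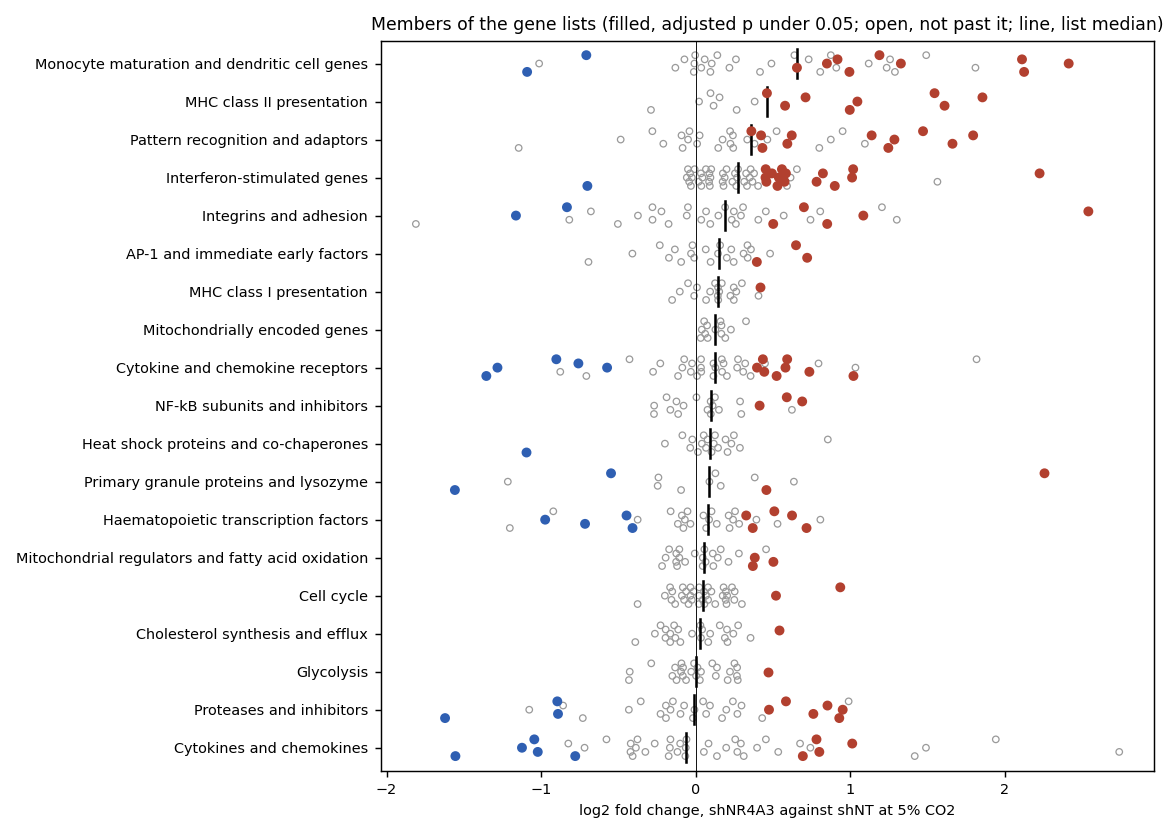
Log2 fold change between shNR4A3 and shNT cells at 5% CO2 (horizontal axis) of each tested member of 19 gene lists (rows, ordered by median); red and blue filled points are members called higher and lower, open points are not called, and black lines are list medians. Red points prevail in the lists of monocyte maturation, MHC class II, pattern recognition and interferon-stimulated genes, and the mitochondrially encoded list holds no filled point.

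Interferon-stimulated genes are induced by type I and type II interferons, and many of their promoters carry an element called the ISRE. Of 56 listed genes 55 were tested, 15 were called higher and 1 lower, and the list's median log2 fold change was 0.27 against 0 over all genes tested. Among all tested genes 3.36% were called higher, as given above. The count of higher members was 21 with the replicate block and 11 without shNR4A3 replicate 2. To show the element itself, the promoter windows of 4 members that were called higher and hold it, picked for holding it, are printed here from 250 bases before to 50 bases after the annotated start. They are RefSeq sequences of GRCh38.p14, written 5′ to 3′ on the gene's strand, in which capitals mark matches to GAAANNGAA, the core of the ISRE, on either strand. IFI27 is a small interferon-inducible protein, IFI6 its relative, and EPSTI1 and IFI44L are further interferon-induced genes.
IFI27 promoter, chr14:94110486-94110785, plus strand: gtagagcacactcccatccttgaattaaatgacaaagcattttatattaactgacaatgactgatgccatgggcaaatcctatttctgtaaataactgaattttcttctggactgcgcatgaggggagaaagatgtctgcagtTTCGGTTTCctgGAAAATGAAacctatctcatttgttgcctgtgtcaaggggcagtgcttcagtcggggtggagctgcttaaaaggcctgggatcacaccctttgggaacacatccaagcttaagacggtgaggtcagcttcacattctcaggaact
EPSTI1 promoter, chr13:42992192-42992491, minus strand: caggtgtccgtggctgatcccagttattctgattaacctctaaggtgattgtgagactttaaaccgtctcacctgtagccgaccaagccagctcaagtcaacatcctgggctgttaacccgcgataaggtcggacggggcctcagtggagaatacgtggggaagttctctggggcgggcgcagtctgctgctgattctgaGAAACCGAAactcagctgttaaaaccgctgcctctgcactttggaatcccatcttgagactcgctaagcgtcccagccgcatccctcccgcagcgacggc
IFI44L promoter, chr1:78620198-78620497, plus strand: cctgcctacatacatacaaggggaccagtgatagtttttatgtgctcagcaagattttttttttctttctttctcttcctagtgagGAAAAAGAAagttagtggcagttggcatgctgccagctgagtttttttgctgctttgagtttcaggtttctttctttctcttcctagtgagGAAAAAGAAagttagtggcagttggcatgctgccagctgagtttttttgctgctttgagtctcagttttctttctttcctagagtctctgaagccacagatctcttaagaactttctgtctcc
IFI6 promoter, chr1:27672143-27672442, minus strand: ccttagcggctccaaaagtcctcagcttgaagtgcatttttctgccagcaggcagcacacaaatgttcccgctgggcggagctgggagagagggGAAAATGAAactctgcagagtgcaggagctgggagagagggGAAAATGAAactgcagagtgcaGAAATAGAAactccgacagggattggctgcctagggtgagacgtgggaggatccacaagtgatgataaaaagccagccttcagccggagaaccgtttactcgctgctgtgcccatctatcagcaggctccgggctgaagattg

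The core was found 2 times in the window of IFI27, 1 time in EPSTI1, 2 times in IFI44L and 3 times in IFI6. The first window listed for each gene was searched. Of the 15 members called higher 12 had a window, and 8 of these (66.7%) held the core. Over the whole list, which includes these 12, it was in 28 of 43 windows (65.1%), a like share, so the core does not set apart the members that rose. Over all promoter windows it was in 2264 of 27305 (8.29%), and over those of tested protein-coding genes in 729 of 11155 (6.54%). The NBRE, AAAGGTCA on either strand, which contains the letters AGGTCA bound by many nuclear receptors, was in none of the 12 and in 330 of 27305 windows (1.21%). The letters AGGTCA by themselves were in 1 of the 12 and in 3806 of 27305 windows (13.9%). Such matches describe the windows and say nothing of binding. Windows were missing for part of every set: 80% of the members called higher, 76.8% of the list, 79.9% of all protein-coding genes called higher and 77% of those called lower had a window. So no share is compared by test, and none is given for all the called genes.

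The levels of these genes were as follows. IFI27 was at 6.06, 5.17 and 5.92 TPM in shNT cells and 26.1, 28.2 and 23.2 TPM in shNR4A3 cells (log2 fold change 2.22 ± 0.13, adjusted p = 4.2e-08). EPSTI1 was at 5.64, 5.33 and 6.18 TPM and at 8.91, 10.8 and 11.2 TPM (log2 fold change 0.90 ± 0.14, adjusted p = 0.000993). IFI16, a sensor of DNA, was at 12.5, 11.4 and 14.6 TPM and at 23.7, 24.8 and 26.7 TPM (log2 fold change 1.02 ± 0.11, adjusted p = 3.2e-05). Every shNR4A3 library exceeded every shNT library in these 3 genes. TRIM22, an antiviral ubiquitin ligase, had a log2 fold change of 1.01 ± 0.15, IFI44L of 0.82 ± 0.16, OAS1, which makes the activator of RNase L, of 0.58 ± 0.11, CMPK2 of 0.58 ± 0.09, IFI6 of 0.49 ± 0.10 and BST2, which tethers virions, of 0.46 ± 0.09. MX2 (0.45), IFI35 (0.45), IFIT3 (0.54), IFI44 (0.78), IRF7 (0.53) and ISG15 (0.56) were the remaining calls. Each of these 6 calls was lost in 3 or 4 of the fits that leave out 1 library: MX2, ISG15 and IRF7 without shNT replicate 1, shNR4A3 replicate 2 or shNR4A3 replicate 3, MX2 and ISG15 also without shNT replicate 2, IFIT3 without any 1 shNT library or shNR4A3 replicate 2, IFI44 without shNT replicate 1, shNT replicate 2 or shNR4A3 replicate 3, and IFI35 without shNT replicate 2, shNT replicate 3 or shNR4A3 replicate 3. The highest adjusted p in these fits was 0.182 for MX2, 0.167 for ISG15, 0.0892 for IRF7, 0.101 for IFIT3, 0.0898 for IFI44 and 0.0763 for IFI35. In 1 fit to all 36 libraries, which share a single estimate of the spread, IFI44L (adjusted p = 0.0839), OAS1 (0.111) and IFI6 (0.385) were not called. That fit also lost the calls of MX2, ISG15, IRF7 (adjusted p = 0.169), IFIT3 (0.368) and IFI44 (0.146). The member called lower was GBP5, an interferon-gamma induced GTPase, at 8.56, 8.77 and 9.51 TPM in shNT and 5.12, 5.20 and 5.60 TPM in shNR4A3 cells.

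MHC class II molecules present peptides from engulfed material to CD4 T cells. Of the 15 tested genes of this list, of 16 listed, 8 were called higher and none lower, with a median log2 fold change of 0.46, so that 53.3% of the tested members were higher against 3.36% of all genes. CD74, the invariant chain that guides class II molecules, was at 106, 105 and 95.3 TPM in shNT cells and 185, 146 and 151 TPM in shNR4A3 cells (log2 fold change 0.71 ± 0.11, adjusted p = 0.00115). HLA-DRA, the alpha chain of HLA-DR, rose from 10.7, 9.60 and 10.1 TPM to 23.7, 17.3 and 17.4 TPM (log2 fold change 1.00 ± 0.20, adjusted p = 0.00563). HLA-DPA1 (log2 fold change 1.55 ± 0.29) and IFI30 (1.86 ± 0.35), a lysosomal thiol reductase that unfolds antigens, rose from levels under 1 TPM in every shNT library. Every shNR4A3 library again lay above every shNT library. HLA-DRB1 (0.46), HLA-DRB5 (0.58), HLA-DPB1 (1.61) and MARCHF1 (1.05), a ligase that removes class II molecules from the surface, were the other calls. Each was lost in 1 or more fits without a library: HLA-DRB1 without shNT replicate 3 (adjusted p = 0.0576), HLA-DRB5 without that library (0.0586) or shNR4A3 replicate 1 (0.057), HLA-DPB1 without shNT replicate 2 (0.0894), shNT replicate 3 (0.103) or shNR4A3 replicate 1 (0.137), and MARCHF1 without shNT replicate 1 (0.108), shNT replicate 2 (0.0851), shNR4A3 replicate 1 (0.0905) or shNR4A3 replicate 3 (0.0893). Reads of the near-identical DRB genes may have been split between them. CIITA, the class II transactivator, was below 0.5 TPM in all 6 libraries and had a log2 fold change of 0.38 ± 0.33 (adjusted p = 0.59). The count fell from 8 to 5 without shNT replicate 3 or shNR4A3 replicate 1 and stayed at 8 without shNR4A3 replicate 2. Of the 20 class I presentation genes 1 was called, PSME2 of the proteasome activator (log2 fold change 0.41 ± 0.09), and 4 with the replicate block, all higher; the 5% called lies near the 6.19% of all genes.

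Pattern recognition receptors sense microbial products. Of 35 tested genes of 38 listed, 11 were called higher and none lower, with a median log2 fold change of 0.36. The 31.4% higher compares with 3.36% of all genes tested. CD180, a Toll-like receptor homologue, and LY86, the protein that pairs with it at the surface, both rose. LY86 was at 36.6, 28.4 and 28.2 TPM in shNT cells and 77.6, 67.5 and 74.3 TPM in shNR4A3 cells (log2 fold change 1.29 ± 0.14, adjusted p = 3.67e-05). CD180 was at 2.36, 1.43 and 2.05 TPM and at 6.86, 4.51 and 6.43 TPM (log2 fold change 1.66 ± 0.22, adjusted p = 0.000212). CLEC12A, an inhibitory lectin receptor, rose from 4.05, 2.88 and 3.34 TPM to 10.4, 8.07 and 9.07 TPM (log2 fold change 1.47 ± 0.20, adjusted p = 0.000223). None of these overlapped between the lines. TLR2, the receptor of bacterial lipoproteins, had a log2 fold change of 0.59 ± 0.09 (adjusted p = 0.00107), whereas TLR4, the receptor of LPS, was at 21.6, 16.6 and 16.97 TPM in shNT and 22.98, 22.04 and 18.0 TPM in shNR4A3 cells and was not called (0.24 ± 0.13, adjusted p = 0.353). Its co-receptor CD14 was at 32.2, 18.2 and 17.3 TPM and at 53.3, 31.4 and 35.2 TPM, which overlap (0.87 ± 0.30, adjusted p = 0.156); it was called with the replicate block (adjusted p = 0.000227) and without shNT replicate 1 (0.00654). The list's count was 9 without shNR4A3 replicate 2, 5 without shNT replicate 2 or shNT replicate 3, and 6 without shNR4A3 replicate 3. The members whose calls were lost in 1 or more of these fits were TLR7, CLEC7A, NLRP3, NLRC4, PYCARD, CASP1 and IRAK2.

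Genes that rise as monocytes mature or turn into macrophages and dendritic cells were mostly on the higher side. Of 37 tested genes of 42 listed, 9 were called higher and 2 lower, and the median log2 fold change, 0.66, was the highest of the pathway lists. Calls made up 29.7% of the tested members, against 6.19% of all genes. With the replicate block 15 were higher and 3 lower, and without shNR4A3 replicate 2 it was 11 and 2. Leaving out 1 library at a time gave 8 to 14 calls, with 6 to 12 higher. The call of KLF2 was lost in 5 of these 6 fits (adjusted p up to 0.193). That of C1QC was lost in 3 (up to 0.112), of CLEC10A in 2 (up to 0.0905) and of VSIG4 in 1 (0.059). KLF2 and C1QC were not called in DESeq2. After CD36, given above, SIGLEC1, a sialic acid receptor of macrophages, rose from 5.77, 6.31 and 7.07 TPM to 10.8, 14.1 and 11.9 TPM (log2 fold change 0.99 ± 0.12, adjusted p = 0.000118). KLF4, a transcription factor of monocyte differentiation, rose from 19.4, 15.3 and 16.9 TPM to 37.3, 30.4 and 26.4 TPM (log2 fold change 0.92 ± 0.14, adjusted p = 0.000879). IRF8, a factor required for monocytes and dendritic cells, rose from 311, 319.6 and 275 TPM to 403, 552 and 430.3 TPM (log2 fold change 0.66 ± 0.11, adjusted p = 0.00147). The 3 genes were higher in every shNR4A3 library. The factor MAF had a log2 fold change of 1.33 ± 0.26. Lower were the co-stimulatory receptor CD40 (log2 fold change -0.71 ± 0.13, adjusted p = 0.00309) and the tetraspanin CD9 (-1.09 ± 0.22, adjusted p = 0.00556). In the fit to all 36 libraries CD40 (adjusted p = 0.0913), VSIG4 (0.075) and MAF (0.0631) were not called. The monocytic marker list, which partly shares these genes, had 4 of 17 members called (23.5%, against 6.19% of all genes). These were LYZ, CSF1R, ITGB2 and SPI1, all higher, and the other members were not called. The call of SPI1 was lost in 3 of the 6 fits without 1 library. In bulk RNA, fewer cells of a type and less RNA per cell cannot be told apart, and the same holds for increases.

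Primary granule proteins went in both directions. Of 13 tested genes 2 were higher, LYZ and RNASE2, and 2 lower, and the call of RNASE2 was lost without shNT replicate 1 or 2 or shNR4A3 replicate 2 or 3 (adjusted p up to 0.0765). CTSG, the granule protease cathepsin G, was at 2993, 4652 and 4734 TPM in shNT cells and 1012, 1727 and 1341 TPM in shNR4A3 cells (log2 fold change -1.56 ± 0.24, adjusted p = 0.0144). Its call was lost without shNT replicate 3 (adjusted p = 0.138) or shNR4A3 replicate 3 (0.0957). SRGN, the granule proteoglycan serglycin, fell from 10613, 10662 and 10516 TPM to 7213, 7252 and 6545 TPM (log2 fold change -0.55 ± 0.08, adjusted p = 0.000457). ELANE, neutrophil elastase, was at 3633 to 4692 TPM in shNT and 3851 to 4948 TPM in shNR4A3 cells and was not called (0.09 ± 0.11, adjusted p = 0.722). Among 33 tested proteases and inhibitors 6 were higher and 3 lower (10 and 5 with the replicate block). Calls made up 30.8% of the granule list and 27.3% of the proteases and inhibitors, against 6.19% of all genes. The lysosomal protease CTSZ (log2 fold change 0.95 ± 0.10, adjusted p = 1.46e-05) and the inhibitor SERPINB8 (0.93 ± 0.09, adjusted p = 1.13e-05) were higher. The bone collagenase CTSK was lower (-0.90 ± 0.14, adjusted p = 0.00089).

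Cytokines and chemokines went in both directions. Of 44 tested genes of 47 listed, 4 were higher and 5 lower, and without shNT replicate 2 the 9 calls became 5. The 20.5% called compares with 6.19% of all genes tested. CCL5, which draws T cells and monocytes, was at 572, 485 and 456 TPM in shNT cells and 279, 281 and 293 TPM in shNR4A3 cells (log2 fold change -0.78 ± 0.10, adjusted p = 0.000169). CCL2, the main monocyte chemoattractant, fell from 14.6, 9.12 and 8.62 TPM to 3.41, 3.42 and 3.81 TPM (log2 fold change -1.55 ± 0.25, adjusted p = 0.000993). In the fit to all 36 libraries CCL2 had an adjusted p of 0.0567 and CSF1, described below, of 0.0769. CCL23 fell too (-1.12 ± 0.20, adjusted p = 0.00267). TNF, the tumour necrosis factor, was at 72.3, 71.9 and 51.6 TPM and at 19.3, 39.8 and 35.2 TPM, without overlap (log2 fold change -1.02 ± 0.24, adjusted p = 0.0396). Its call did not hold with the replicate block (adjusted p = 0.116), nor without shNT replicate 1 (0.0842), shNT replicate 2 (0.111) or shNR4A3 replicate 3 (0.107). CSF1, the ligand of CSF1R, had a log2 fold change of -1.04 ± 0.25 (adjusted p = 0.0186), lost without shNT replicate 2 (0.108) or shNR4A3 replicate 1 (0.0681). IL1B and CXCL8 were not called (-0.39 ± 0.13, adjusted p = 0.107 and 0.05 ± 0.20, adjusted p = 0.93), although IL1B was with the replicate block (adjusted p = 0.0312). IL1RN, the antagonist of the IL-1 receptor, rose from 22.8, 20.8 and 26.3 TPM to 41.5, 33.8 and 40.1 TPM (log2 fold change 0.78 ± 0.12, adjusted p = 0.000879). TNFSF10, the death ligand TRAIL, rose from 4.30, 4.44 and 5.20 TPM to 9.64, 7.43 and 9.92 TPM (log2 fold change 1.01 ± 0.18, adjusted p = 0.00263), and its receptor TNFRSF10A fell (-0.90 ± 0.15, adjusted p = 0.00122).

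Of 43 tested receptors 8 were higher and 5 lower (14 and 7 with the replicate block, and 7 calls in all without shNT replicate 2). Calls made up 30.2% of the receptors, against 6.19% of all genes. CSF1R, the receptor that sustains monocytes and macrophages, was at 101, 75.9 and 77.7 TPM in shNT cells and 182, 157 and 159.9 TPM in shNR4A3 cells, a fold of 2.03 (log2 fold change 1.02 ± 0.12, adjusted p = 9.97e-05). IFNGR1, the interferon-gamma receptor chain, rose from 131, 117 and 127 TPM to 176, 193 and 177 TPM (log2 fold change 0.59 ± 0.08, adjusted p = 0.000416). CXCR3, the receptor of interferon-induced chemokines, fell from 24.5, 31.3 and 22.2 TPM to 7.47, 11.99 and 11.7 TPM (log2 fold change -1.28 ± 0.20, adjusted p = 0.000827). The groups did not overlap for any of these receptors. IL6R (0.44 ± 0.08), IL13RA1 (0.52 ± 0.09) and CSF2RA (0.58 ± 0.11) were also higher.

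Transcription factors of blood cell fate went in both directions. Of 32 tested haematopoietic factors 5 were higher and 4 lower, a count of 9 that was 4 without shNT replicate 2 and 5 without shNR4A3 replicate 3. The 28.1% called compares with 6.19% of all genes tested. ID1, an inhibitor of basic helix-loop-helix factors, was higher (log2 fold change 0.72 ± 0.13, adjusted p = 0.00255). TCF4, a factor of plasmacytoid dendritic cells, fell from 2.46, 2.42 and 2.84 TPM to 1.08, 1.53 and 1.196 TPM (log2 fold change -0.97 ± 0.14, adjusted p = 0.000412). ETS1 was lower (-0.45 ± 0.09, adjusted p = 0.00641). The myeloid master factor SPI1 had a log2 fold change of 0.37 ± 0.10 (adjusted p = 0.0333), lost without shNT replicate 2 (0.0733), shNT replicate 3 (0.14) or shNR4A3 replicate 1 (0.155), and CEBPA was not called (0.09 ± 0.13, adjusted p = 0.776). FOS (0.72 ± 0.11, adjusted p = 0.00102) and the antiproliferative gene BTG2 (0.65 ± 0.11, adjusted p = 0.00178) were higher among 24 AP-1 and immediate early genes, of which 3 were called and 5 with the replicate block. The share called among the AP-1 and immediate early genes was 12.5%. EGR1, an early response factor counted with the haematopoietic factors, was lower (log2 fold change -0.72, adjusted p = 0.0213). Its call was lost in 4 of the 6 fits without 1 library. Of 20 NF-kB genes 3 (15%) were called higher and none lower, and only 1 without shNT replicate 3. None of them is a DNA-binding Rel subunit: NFKBIE (0.69 ± 0.10, adjusted p = 0.000586), BCL3 (0.59 ± 0.13) and TNIP2 (0.41 ± 0.09). Without shNT replicate 3 the adjusted p was 0.0539 for BCL3 and 0.066 for TNIP2, and without shNR4A3 replicate 1 it was 0.0696 for TNIP2.

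The chains of a leukocyte integrin both rose. Of 35 tested adhesion genes 5 were higher and 2 lower (11 and 6 with the replicate block). The 20% called compares with 6.19% of all genes tested. ITGAL, the alpha chain of LFA-1, was at 34.9, 35.7 and 35.1 TPM in shNT cells and 55.99, 87.3 and 74.2 TPM in shNR4A3 cells (log2 fold change 1.08 ± 0.12, adjusted p = 4.49e-05), and its partner ITGB2 was at 449, 431 and 389 TPM and at 697, 684 and 614 TPM (0.70 ± 0.09, adjusted p = 0.000219). ITGB5, a vitronectin receptor chain, was lower (-0.83 ± 0.13, adjusted p = 0.000733).

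In the lists of metabolism, stress and growth few members were called. Calls were 1 of 27 glycolysis genes (HK1; 6 with the replicate block), 3 of 24 mitochondrial regulators and fatty acid oxidation genes (PPARD, ESRRA and ACADVL; 5 with the block, none without shNT replicate 3 or shNR4A3 replicate 1), 1 of 25 cholesterol genes (INSIG1; 4 with the block) and 1 of 20 heat shock genes (HSPA2, log2 fold change -1.10 ± 0.19; 3 with the block). Among 38 cell cycle genes 2 were called, CCND1 (0.94 ± 0.12, adjusted p = 0.000201) and AURKB (0.52 ± 0.13), and 7 with the block. Of these calls, those of HK1, PPARD, ESRRA, ACADVL, INSIG1 and AURKB were each lost in 3 or 4 of the 6 fits that leave out 1 library (adjusted p up to 0.136 for ESRRA), and the heat shock count was 4 without shNR4A3 replicate 2. These shares, from 3.7% to 12.5%, compare with 6.19% over all genes. None of the 13 mitochondrially encoded genes was called in edgeR (unadjusted p under 0.05 in 0), with the block or in DESeq2, and their summed level ranged over 48280 to 90270 TPM in shNR4A3 and 59990 to 86130 TPM in shNT cells; without shNR4A3 replicate 2, the library lowest in these transcripts, MT-CO1 was called (adjusted p = 0.016).

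The same lines were compared in 6 further libraries kept at 10% CO2, which share no library with those at 5% CO2. There 1213 genes (6.85%) were called, 619 (3.49%) higher and 594 (3.35%) lower. The 2 comparisons had 717 called genes in common, 379 higher and 338 lower, all with the same sign; they made up 65.4% of the calls at 5% CO2 and 59.1% of those at 10% CO2. Of the 1097 genes called at 5% CO2, 1092 (99.5%) had the same sign at 10% CO2, against 70% of all genes tested, and of the 280 with a fold of 2 or more 221 were called again. Without shNR4A3 replicate 2 at 5% CO2, 680 of 1014 calls were shared. PRDM6 had log2 fold changes of 3.13 and 3.15 at 5% and 10% CO2, CKAP4 of -3.22 and -3.16, LYZ of 2.26 and 2.16, CSF1R of 1.02 and 1.14 and CCL5 of -0.78 and -0.94. The difference of the line effect between the CO2 levels was called for no gene in edgeR's interaction test (412 genes at an unadjusted p under 0.05) and for none in DESeq2. NR4A3 itself had an interaction of 2.09 on the log2 scale (edgeR adjusted p = 1). HLA-DPB1, higher at 5% CO2, was at -0.27 at 10% CO2 (edgeR interaction adjusted p = 1).

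**Figure D3:**
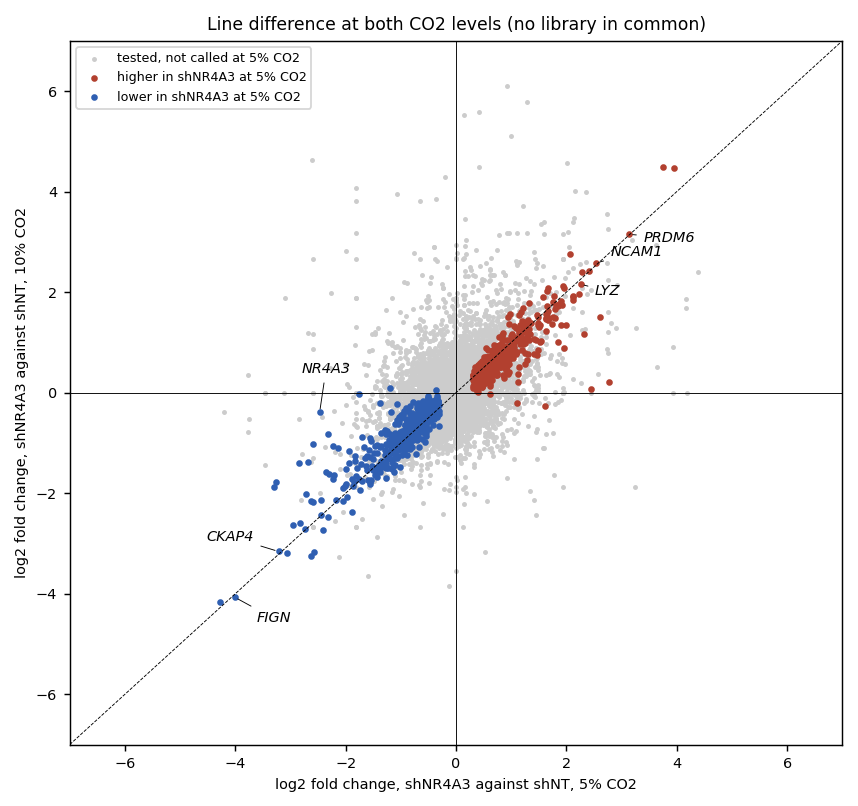
Log2 fold change between shNR4A3 and shNT cells at 5% CO2 (horizontal axis) and at 10% CO2 (vertical axis) for 17720 genes; red and blue points are genes called higher and lower at 5% CO2, and the dashed line marks equal values. Apart from 5 genes of opposite sign, called genes lie on the same side of 0 at both levels, and NR4A3 lies off the dashed line at -2.47 and -0.39.

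With LPS at 5% CO2 the line effect was given by a fit to 12 libraries, of which the 6 resting ones are those described above. No gene was called in edgeR's test of whether LPS changed the line effect (unadjusted p under 0.05 in 854), while 8 were called in DESeq2. Several of the resting differences stood at like values with LPS: PRDM6 had a log2 fold change of 3.40, LYZ of 2.29, CSF1R of 1.10, IFI27 of 2.11 and CKAP4 of -2.93. Of the cytokine genes named above, the log2 fold change with LPS was -0.28 for CCL2, -0.12 for TNF, -0.38 for CSF1, -0.47 for CCL5, -0.88 for CCL23, 1.14 for IL1RN and 0.74 for TNFSF10, and no interaction passed adjustment. The effect on NR4A3 was smaller with LPS on this scale (edgeR interaction adjusted p = 0.58).

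The shNR4A2 line was compared with the same 3 shNT libraries at 5% CO2, and called 1008 genes (5.69%), 570 (3.22%) higher and 438 (2.47%) lower. Because the controls are shared, values are set side by side and no overlap is read. In the shNR4A2 line 12 of 37 tested maturation genes were called higher and 1 lower (median log2 fold change 0.65). Of 15 MHC class II genes 5 were higher and 0 lower (median 0.46), and of 35 pattern recognition genes 9 and 2 (median 0.34). These 3 medians stood near those of the shNR4A3 line. Of 55 interferon-stimulated genes 4 were higher and 1 lower (median 0.16). NR4A2 had a log2 fold change of -0.91 in its own line and -0.28 in the shNR4A3 line. Several genes stood at like values in both lines: NCAM1 at 2.54 with shNR4A3 and 2.99 with shNR4A2, LYZ at 2.26 and 1.68, CLEC12A at 1.47 and 1.55, TNFSF10 at 1.01 and 1.06, IL1RN at 0.78 and 0.78, and HUNK at -3.06 and -3.27. Others differed between the hairpins. The lines were compared directly, shNR4A3 against shNR4A2, a test in which the shNT libraries play no part and 479 genes (2.7%) were called.

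In that direct test PRDM6 was higher in shNR4A3 cells (log2 fold change 3.26, adjusted p = 1.34e-08), having a value of -0.13 in the shNR4A2 line against shNT. IFI27 (1.90, adjusted p = 0.000112) and IGFBP7 (1.63, adjusted p = 1.56e-05) were higher as well, and FIGN (-4.06, adjusted p = 2.17e-06), CKAP4 (-2.07, adjusted p = 4.59e-05) and PAQR5 (-2.14, adjusted p = 7.81e-05) were lower. The ephrin receptor EPHA7 went opposite ways in the lines, at 1.57 with shNR4A3 and -1.13 with shNR4A2 (direct test 2.70, adjusted p = 2.17e-06), as did the adhesion gene IGLON5, at -0.97 and 1.67 (direct test -2.64, adjusted p = 7.97e-05), although its own call against shNT was lost without shNT replicate 2 or 3 or shNR4A3 replicate 1 or 3 (adjusted p up to 0.131). The non-coding LINC00461 was at 0.114, 0.101 and 0.185 TPM in shNT and 1.78, 2.05 and 1.52 TPM in shNR4A3 cells and was at -0.06 in the shNR4A2 line (direct test 3.81, adjusted p = 7.97e-05). CCL5 (-0.89, adjusted p = 0.000157), CCL2 (-1.31, adjusted p = 0.00459) and TNF (-1.17, adjusted p = 0.0262) were lower in shNR4A3 than in shNR4A2 cells.

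**Figure D4:**
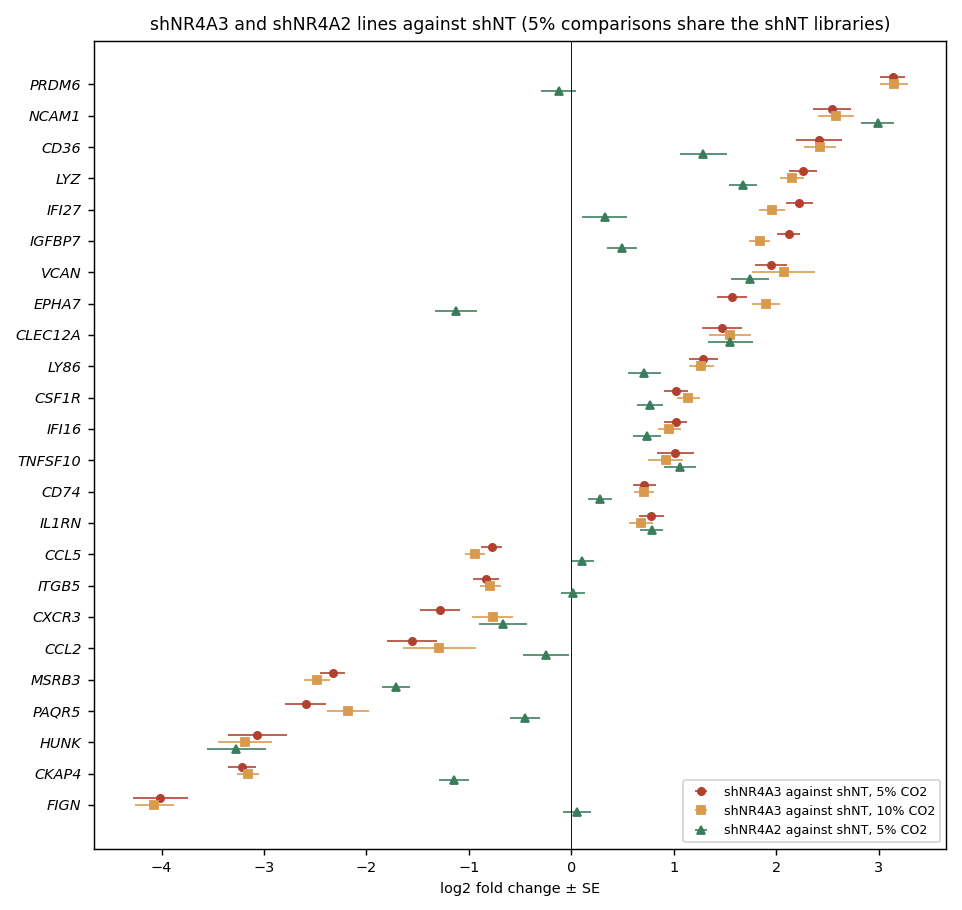
Log2 fold change ± SE (horizontal axis) of 24 genes in shNR4A3 against shNT cells at 5% CO2 (red circles) and 10% CO2 (orange squares) and in shNR4A2 against shNT cells at 5% CO2 (green triangles). PRDM6, IFI27, IGFBP7, EPHA7 and FIGN part the hairpins, while NCAM1, VCAN, CLEC12A and HUNK stand at like values in all 3 comparisons.

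Called genes were also counted by position. In the first 20 Mb of chromosome 17 (GRCh38), an interval picked after the values were seen, 32 of 285 tested genes (11.2%) were higher and 3 lower, against 3.66% higher in the rest of the chromosome and 3.36% over all genes, and the median log2 fold change was 0.17, against 0.046 in the rest of chromosome 17 and -0.0035 over all other chromosomes. Of 223 bins of 10 Mb the pair in this interval ranked 4 and 2 by median, after 30 to 40 Mb of chromosome 5 (0.203, with 4 of 45 tested genes higher) and with 10 to 20 Mb of chromosome 8 (0.177, with 2 of 40 higher) between them. At 10% CO2 the same interval had 25 genes higher and 3 lower (3.49% and 3.35% over all genes) and a median of 0.18. The direct test against shNR4A2 cells had 10 higher and none lower (186 and 293 over all 17720 genes) and a median of 0.17. In the shNR4A2 line the interval had 6 higher and 6 lower (3.22% and 2.47% over all genes) and a median of 0.005. Leaving out 1 library at a time gave medians of 0.147 to 0.207, and the higher genes numbered 20 without shNT replicate 1, 17 without shNT replicate 2, 10 without shNT replicate 3, 16 without shNR4A3 replicate 1, 15 without shNR4A3 replicate 3 and 23 without shNR4A3 replicate 2. AURKB, ACADVL, TNFSF13 and the lectin CLEC10A, counted in the lists above, lie in this interval. The call of TNFSF13 (log2 fold change 0.69) was lost in 5 of the 6 fits without 1 library. CLEC10A was called higher in the shNR4A2 line too (log2 fold change 1.85, edgeR adjusted p = 0.0451). The signalling adaptor CRK (log2 fold change 0.48 ± 0.10), PHF23 (0.58 ± 0.10), EIF5A, a translation factor (0.43 ± 0.08), and PIK3R5, a PI3 kinase subunit (0.90 ± 0.13), were among its called genes. DNA copy number was not measured, and whether it moves with this result was not tested.

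**Figure D5:**
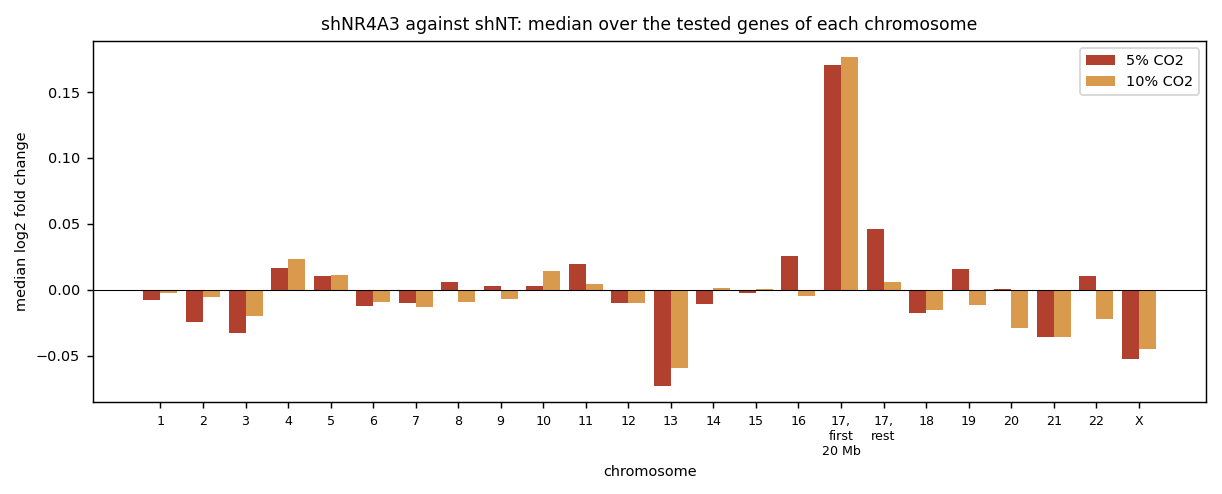
Median log2 fold change between shNR4A3 and shNT cells over the tested genes of each chromosome (bars), at 5% CO2 (red) and 10% CO2 (orange), with chromosome 17 split at 20 Mb. The bars of the first 20 Mb of chromosome 17, the only interval split off and one picked after the values were seen, stand at 0.17 and 0.18, above those of the whole chromosomes.

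Some called genes were neighbours. There were 11 runs of 3 or more adjacent tested genes called in the same direction. How many such runs the shares of called genes would give was not tested. The longest, of 5 genes called higher (SLC16A13, CLEC10A, ASGR2, DLG4 and ACADVL), lies in the chromosome 17 interval described above. LILRB1 and LILRB4, inhibitory leukocyte receptors on chromosome 19, rose with the adjoining pseudogene LILRP1 (log2 fold changes of 1.24, 0.92 and 1.75), and reads may be shared among such related genes. MS4A6A (1.17) on chromosome 11 rose with MS4A4E and MS4A4A. TMEM176B (-2.41) and TMEM176A (-1.60), which share a promoter region on chromosome 7, fell with AOC1 (-0.43). The calls of TMEM176A and AOC1 were each lost in 4 of the 6 fits without 1 library, among them those without shNT replicate 1, shNR4A3 replicate 2 and shNR4A3 replicate 3, and that of LILRP1 without shNT replicate 2 or shNR4A3 replicate 3.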

How the data were processed

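Whole-genome expression was measured by polyA RNA sequencing of THP-1 lines. The values deposited by the authors are raw counts per gene, made with featureCounts of Subread 1.5.2 from STAR 2.5.2b alignments to GRCh38 after trimming in Trimmomatic 0.36. The annotation release and the strand setting are not given in the sources used here, so overlapping and antisense genes may share counts. Of 57500 gene IDs 56410 matched GENCODE v44, which gave names and coordinates.

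Groups came from the sample records. Genes were tested with edgeR 4.0.16 (robust quasi-likelihood F test, TMM factors) in R 4.3.3 on 17720 genes passing filterByExpr (minimum count 10), with Benjamini-Hochberg adjustment over all of them. Each comparison was fitted to its own libraries, SE is the log2 fold change over the root of F, and TPM used annotated exon lengths. The fits were tested on simulated data. With 3 libraries against 3, an exact permutation test could not go below p = 0.1. Over 9465 genes of at least 10 CPM, deviations of libraries with the same number in the labels correlated at 0.352, 0.317 and 0.565, so the numbers were taken as pairs. Over all 17720 tested genes these correlations were only 0.0724, 0.0356 and 0.144. The main test did not use the pairs. Alternatives were DESeq2 1.42.0, other size factors, filters, thresholds, thinned counts, 1 fit to all 36 libraries, a replicate block and leaving out each library.

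Named were the NR4A genes, in each direction the 10 largest called changes without overlap and with a mean of at least 2 CPM, the 5 smallest adjusted p-values, the 5 largest changes called at both CO2 levels and the 5 smallest adjusted p-values against shNR4A2, and in each list the 4 smallest adjusted p-values among its calls. Other list members, the markers, the genes of the chromosome 17 interval and of neighbouring runs, and the printed promoters were picked with their values in view. Some results that the naming rule covers are not reported here. The members and gene lists were chosen with earlier results of these data known.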

Additional observations from a re-analysis of the deposited data

How the results depend on the processing

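Of the 1097 genes called between shNR4A3 and shNT cells at 5% CO2, the replicate block raised the count to 2299, an adjusted p under 0.01 lowered it to 491, a fold of at least 1.5 to 651 and a test against a fold of 1.2 to 450, the last 3 by construction. Leaving out 1 library gave 667 to 1014. The block gave 2394 genes at 10% CO2, 3803 for shNR4A2 against shNT and 1992 for shNR4A3 against shNR4A2, where no filter gave 814. Leaving out 1 library gave 595 (without shNR4A3 replicate 1) to 2031 (without shNT replicate 1) genes at 10% CO2, 507 (without shNT replicate 3) to 1221 for shNR4A2 against shNT and 240 (without shNR4A3 replicate 3) to 467 for shNR4A3 against shNR4A2. For the LPS interaction, DESeq2 called 8 genes, no filter 85, the block 17 and leaving out 1 library 0 to 39 (39 without shNR4A3 replicate 2 with LPS); its numbers did not pair the libraries. Where not by construction, the cause was not tested. The CO2 interaction had 0 calls in every alternative. Of 151 genes examined by name and called, 89 kept the call in every setting that gave an adjusted p. The block ended the call of TNF, and DESeq2 ended 5, among them IGLON5, HLA-DPB1 and TMEM176A. The fit to all 36 libraries called 1168 genes, kept 900 of the 1097 (82%) and ended 29 of the 151 calls, among them CCL2, CSF1, CD40, MAF, SPI1, RNASE2, PPARD, AURKB, CLEC7A, CASP1, NLRP3, IRAK2, IGLON5, AOC1 and 8 interferon-stimulated genes. None of the named calls reversed. At under 25 counts per library, the level of NR4A3 at rest limits how precisely its depletion is known.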
